A study of Rattus norvegicus with 12 samples.

Results

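A set of 10 secreted genes of the bone morphogenetic protein (BMP), activin and growth differentiation factor (GDF) families was followed here in the rat heart after myocardial infarction. They were the ligands Bmp2, Bmp4, Bmp6, Bmp10, Inhba, Mstn and Gdf15 and the antagonists Fstl1, Fstl3 and Grem1, chosen by gene symbol, and all 10 of them were found among the 30560 genes listed. Each library came from 1 of 12 male Wistar rats operated on at 7 weeks of age, with 4 rats per group. Sham rats had the chest opened without a suture and received vehicle (0.5% carboxymethylcellulose). MI rats had the left anterior descending coronary artery tied permanently and received the same vehicle. MI + UA rats had the same ligation and received Urolithin A (UA), a gut microbial metabolite of ellagitannins that induces mitophagy, as a 50 mg/ml preparation. All groups were dosed daily by gavage for 8 weeks. The study states the UA dose and the day of the first dose in different ways in different places. RNA was taken from formalin-fixed, paraffin-embedded blocks of the left ventricle, from the middle region by the labels, after the atria had been removed. Rat 66 is MI + UA by its sample label but stands with the vehicle-treated MI rats in the study's echocardiography listing, so results that rest on it were also computed with it in MI.

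BMPs, activins and GDFs belong to the transforming growth factor beta superfamily. They are made as precursors that proteases cut, and they signal as dimers through type II and type I receptor kinases to SMAD proteins, with SMAD1, SMAD5 and SMAD9 downstream of most BMPs and SMAD2 and SMAD3 downstream of activins and myostatin. Secreted antagonists bind many of these ligands before they reach a receptor: gremlin 1 (Grem1) binds BMP2, BMP4 and BMP7, and follistatin-like 3 (Fstl3) binds activins and myostatin. In the heart the family is known for its parts in valve and chamber formation, in the growth of cardiac muscle and in scar formation after injury.

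Between 6228706 and 19031695 reads fell on genes per library. Values are given as CPM, reads scaled to a common library size after trimmed mean of M-values (TMM) normalization, which can be compared between rats for 1 gene but not between genes, because no exon lengths were used here. Reads assigned to genes made up 47.6% ± 0.572 of all counted reads in the Sham rats (SD, n = 4) against 44.3% ± 0.690 in the MI rats (SD, n = 4), and no MI rat reached a Sham rat (exact permutation test, two-sided, p = 0.0286, which is the lower limit for 4 rats against 4). Cardiomyocyte markers were abundant in all rats, with 11 of 12 listed and none at 0. Their summed level was 23531 to 27619 CPM in Sham, 16912 to 18046 CPM in MI and 17148 to 20585 CPM in MI + UA. Other marker sums moved as well. Fibroblast markers summed to 1199 to 1536 CPM in Sham, 2314 to 3755 CPM in MI and 2327 to 3794 CPM in MI + UA. The corresponding macrophage sums were 129 to 163 CPM, 261 to 417 CPM and 219 to 444 CPM, with 1 of the 10 macrophage markers at 0 in every rat. Smooth muscle and pericyte markers ranged from 639 to 658 CPM in Sham and from 642 to 808 CPM in MI, and 4 of these 8 rose. Adipocyte markers ranged from 112 to 151 CPM in Sham and from 98.5 to 127 CPM in MI, and red blood cell markers from 389 to 883 CPM and from 296 to 637 CPM, with none called in either list in MI versus Sham. In MI + UA the adipocyte sum, from 85.8 CPM upward, was below every Sham rat, and 1 adipocyte marker, Fabp4, was lower than in Sham (log2 fold change -0.54, edgeR adjusted p = 0.0034). Most reads of that sum were of Fabp4 (mean 94.3 CPM in MI + UA, 137 CPM in Sham). The fitted estimate was higher in MI + UA than in Sham for 3 of the 4 adipocyte markers tested, none of them called. For 1 of these 3, Sham had 0 reads. In these bulk samples, fewer cells of a type and less RNA per cell cannot be told apart.

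**Figure D1:**
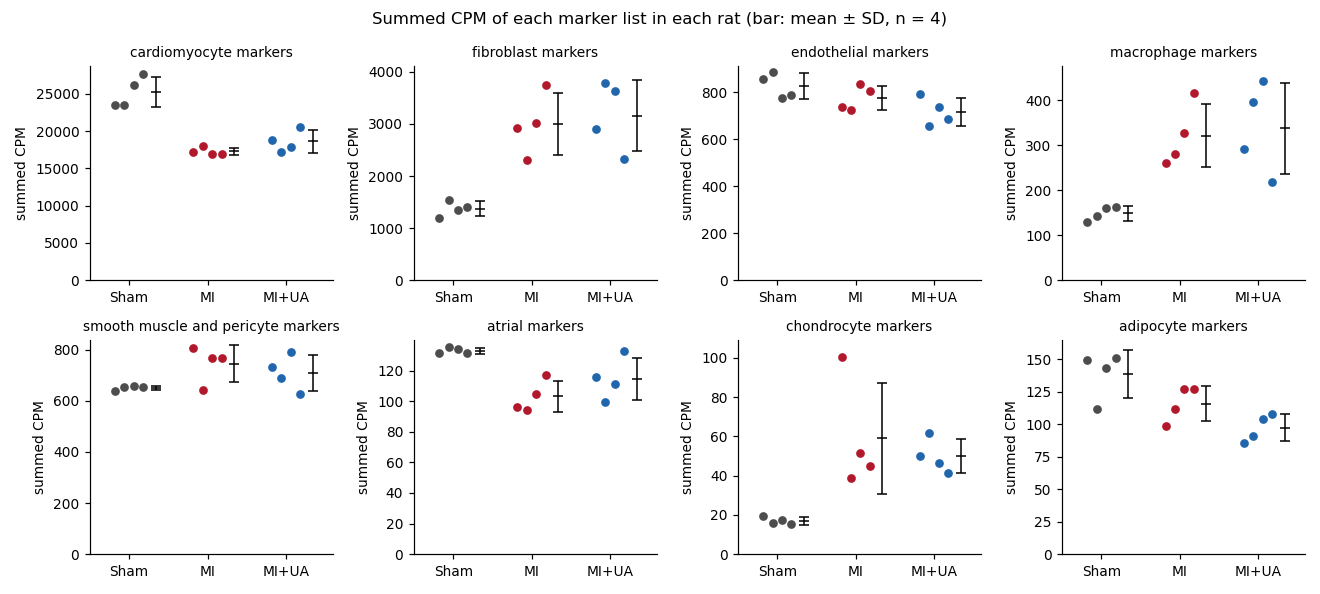
Summed CPM of the markers of 8 cell types in each rat (points), with the mean and SD of each group of 4 rats beside them. The cardiomyocyte sum was lower, and the fibroblast, macrophage and chondrocyte sums were higher, in every MI rat than in every Sham rat.

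In MI versus Sham, the antagonists Fstl1 and Fstl3 and the ligand Bmp6 rose, and no other of the 10 genes passed the test. Fstl1 rose 2.65-fold, Fstl3 2.48-fold and Bmp6 1.51-fold. The Bmp6 call was lost in 6 of the 8 fits that left out 1 rat. The test was edgeR's quasi-likelihood test with Benjamini-Hochberg adjustment over 18182 genes and a threshold of 0.05, which called 11.4% of all genes in either direction and 5.82% as higher. Of the 10 genes, 9 had enough reads for a fold change, and 8 of them had a higher estimate in MI, as did 53% of all genes tested. Their log2 fold changes had a median of 0.98, against 0.03 over all genes tested. Values of the MI and Sham rats did not overlap for 5 of the 10 genes (Fstl1, Fstl3, Bmp6, Inhba and Bmp10), where the same was true of 15.7% of all genes tested. In MI + UA versus MI, none of the 10 genes was called, nor was any of the 18182 genes (0%). At an unadjusted p under 0.05 there were 689 genes, 3.79% of those tested, and DESeq2 also called 0 genes.

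**Figure D2:**
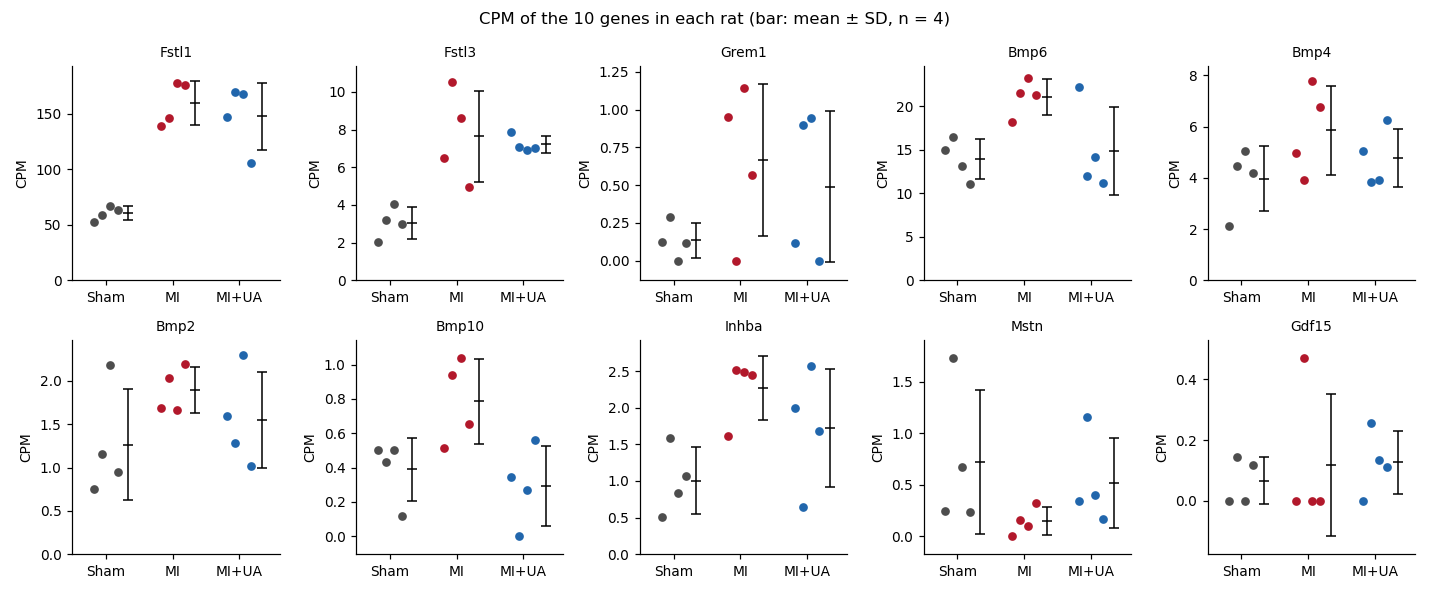
CPM of each of the 10 genes in each rat (points), with the mean and SD of each group of 4 rats beside them. Every MI rat lay above every Sham rat for Fstl1, Fstl3, Bmp6, Inhba and Bmp10, whereas Gdf15, Grem1, Mstn and Bmp10 stayed under 2 CPM in every rat.

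The proximal promoters of the 3 genes that rose are shown because each of them passed the test in MI versus Sham. They were taken from RefSeq on the GRCr8 build, run 5′ to 3′ on the coding strand from 250 bases before to 50 bases after the annotated start, and carry motif matches in capitals. Fstl1 lies at chr11:76454004-76454303 (minus strand), Fstl3 at chr7:10579795-10580094 (minus strand) and Bmp6 at chr17:26675212-26675511 (minus strand).
Fstl1: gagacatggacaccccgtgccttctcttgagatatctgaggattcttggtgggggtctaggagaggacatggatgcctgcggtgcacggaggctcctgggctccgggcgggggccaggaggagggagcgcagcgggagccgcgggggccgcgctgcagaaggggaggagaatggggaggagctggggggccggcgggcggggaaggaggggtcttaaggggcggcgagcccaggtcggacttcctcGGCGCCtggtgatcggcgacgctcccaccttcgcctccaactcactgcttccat
Fstl3: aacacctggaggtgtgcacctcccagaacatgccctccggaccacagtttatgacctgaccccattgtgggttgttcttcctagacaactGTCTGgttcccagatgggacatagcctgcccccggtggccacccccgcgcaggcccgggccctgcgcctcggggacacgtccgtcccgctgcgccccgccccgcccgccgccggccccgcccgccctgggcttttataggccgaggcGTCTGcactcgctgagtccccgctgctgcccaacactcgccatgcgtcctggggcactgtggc
Bmp6: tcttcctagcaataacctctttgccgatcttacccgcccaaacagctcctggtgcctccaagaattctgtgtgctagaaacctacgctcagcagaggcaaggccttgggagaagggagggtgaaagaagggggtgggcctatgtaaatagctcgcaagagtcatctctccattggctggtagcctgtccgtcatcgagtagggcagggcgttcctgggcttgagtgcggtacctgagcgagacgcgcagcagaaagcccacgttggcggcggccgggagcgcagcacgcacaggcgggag
The motifs searched on both strands were the AP-1 element TGANTCA, the SMAD box CAGAC, the GC-rich SMAD site GGCGCC and the TEAD element CATTCC, and none of these 4 contains another. Fstl1 held 1 GGCGCC, starting 4 bases before the annotated start, in a window of 68.7% G and C. Fstl3 held 2 matches to the SMAD box on the opposite strand (printed as GTCTG), 160 and 13 bases before the start, in a window of 69% G and C. Bmp6 held none of the 4 motifs and was less rich in G and C, at 59.3%. Among 33469 rat promoters of the same length, CAGAC was found in 50.1%, GGCGCC in 11%, CATTCC in 14.2% and TGANTCA in 7.33%. Of the 8 genes here with a promoter in the table, 4 held CAGAC, 2 held GGCGCC, 1 held CATTCC and 0 held TGANTCA. Mstn and Bmp2 had no entry. A match of so few letters describes the sequence and is not a binding site.

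Fstl1 (ENSRNOG00000002746), a secreted glycoprotein with a follistatin-like domain, had the smallest p of the 10 genes. Its level was 52.4, 58.7, 67.0 and 63.1 CPM in Sham rats 12, 17, 32 and 38. It was 139, 146, 178 and 176 CPM in MI rats 36, 57, 61 and 89. In MI + UA rats 29, 58, 64 and 66 it was 147, 170, 168 and 106 CPM. Every infarcted rat, with or without UA, therefore lay above every Sham rat, and rat 66 was the lowest of the infarcted rats. On the log2 scale, MI rats exceeded Sham rats by 1.41 (SE 0.13, edgeR adjusted p = 8.79e-07) and MI + UA rats did by 1.29 (SE 0.13, adjusted p = 2.83e-06). MI + UA differed from MI by -0.12, with a 95% interval of -0.36 to 0.12, and it became 0.013 without rat 66 and 0.12 with rat 66 counted in MI. All 8 fits that each left out 1 Sham or MI rat kept the call in MI versus Sham, with log2 fold changes of 1.35 to 1.47.

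Fstl3 (ENSRNOG00000009311), the follistatin relative that neutralizes activins and myostatin, also rose, from a lower read count. Sham rats 12, 17, 32 and 38 had 2.01, 3.18, 4.04 and 2.98 CPM, from 16 to 25 reads each. MI rats 36, 57, 61 and 89 had 6.51, 10.5, 8.61 and 4.97 CPM. MI + UA rats 29, 58, 64 and 66 had 7.88, 7.06, 6.90 and 7.03 CPM. The MI rats were spread widely (7.65 ± 2.42 CPM, SD, n = 4) and the MI + UA rats closely (7.22 ± 0.448 CPM, SD, n = 4), and neither group overlapped Sham (3.05 ± 0.834 CPM, SD, n = 4). Fstl3 rose by 1.31 (SE 0.24, edgeR adjusted p = 0.000923) in MI versus Sham and by 1.27 (SE 0.24, adjusted p = 0.00152) in MI + UA versus Sham, both on the log2 scale. Between MI + UA and MI it was -0.04, with a 95% interval of -0.44 to 0.36. It turned positive when MI rat 57 (0.13) or MI rat 61 (0.03) was left out.

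Fibroblast markers moved with both of these genes. Of the 10 on the list, 8 rose and 0 fell in MI versus Sham, and their summed level separated the groups in the same way. Chondrocyte markers summed to 15.1 to 19.3 CPM in Sham, 39.0 to 100.4 CPM in MI and 41.2 to 61.6 CPM in MI + UA, and 8 of 9 tested macrophage markers rose. The part of these cell types in the rise of Fstl1 and Fstl3 was not tested. The genes whose profiles over the 12 rats were most like that of Fstl1, by the root mean square difference of centred log2 CPM among 10926 candidates, were Loxl2 (0.147), Col1a2 (0.157) and Fbn1 (0.159). These encode a lysyl oxidase, a chain of type I collagen and fibrillin 1. For Fstl3 they were Map1b (0.224), Tgfb2 (0.248) and Prelp (0.258), which encode a microtubule-associated protein, the ligand transforming growth factor beta 2 and a matrix proteoglycan. Part of the Fstl1 gene overlaps the uncharacterized LOC134481075 in the RefSeq annotation, and the strand setting used for counting is not given in the sources used here.

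Grem1 (ENSRNOG00000026053), the BMP antagonist gremlin 1, rested on few reads in every group. Sham rats 12, 17, 32 and 38 had 1, 2, 0 and 1 reads. MI rats 36, 57, 61 and 89 had 13, 0, 11 and 7 reads, which is 0.950, 0, 1.14 and 0.570 CPM. MI + UA rats 29, 58, 64 and 66 had 2, 7, 7 and 0 reads, which is 0.114, 0.899, 0.947 and 0 CPM. Some infarcted rats of each treatment were thus above all Sham rats, but MI rat 57 and MI + UA rat 66 had no read. A count of 0 allows up to 0.470 CPM in rat 57 and 0.169 CPM in rat 66, counting 3 reads as the limit. The log2 fold change in MI versus Sham was 2.27 (SE 1.06), with an unadjusted p of 0.044 and an edgeR adjusted p of 0.193. Its UA difference was -0.83 on the same scale, with a 95% interval of -2.47 to 0.81, and its sign turned (0.11) with rat 66 counted in MI. Leaving out 1 rat gave UA differences from -1.46 (without MI + UA rat 64) to -0.28 (without MI + UA rat 66).

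Among the ligands, Bmp6 (ENSRNOG00000013717), known as a regulator of iron handling through hepcidin and made by endothelial cells, had the highest read counts and was the only ligand of the 7 to pass the test in MI versus Sham. Sham rats 12, 17, 32 and 38 had 14.9, 16.5, 13.1 and 11.1 CPM. MI rats 36, 57, 61 and 89 had 18.2, 21.5, 23.2 and 21.3 CPM. MI + UA rats 29, 58, 64 and 66 had 22.2, 11.9, 14.2 and 11.2 CPM. All 4 MI rats were above all 4 Sham rats, while 3 of the 4 MI + UA rats lay within the Sham range and rat 29 lay within the MI range. This was a log2 fold change of 0.60 in MI versus Sham (SE 0.18, edgeR adjusted p = 0.0372).

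That call was a narrow one. It was lost in 6 of the 8 fits that left out 1 rat, namely Sham rats 12, 32 and 38 and MI rats 57, 61 and 89, with adjusted p-values up to 0.136 and log2 fold changes of 0.50 to 0.64. Counting rat 66 as an MI rat gave 0.44 with an adjusted p of 0.184. DESeq2 kept the call, with an adjusted p of 0.0247.

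In MI + UA versus MI, Bmp6 was the only one of the 10 genes with an unadjusted p below 0.05. Its log2 fold change was -0.48 (SE 0.17, 95% interval -0.82 to -0.14), with an unadjusted p of 0.0125 and an edgeR adjusted p of 1. The groups overlapped through rat 29. Without that rat the log2 fold change was -0.77 and the adjusted p was 0.604. Without MI + UA rat 66, whose group is in doubt, the log2 fold change was -0.34. Against Sham, MI + UA rats differed by 0.12 (95% interval -0.24 to 0.48, adjusted p = 0.771), and the sign turned without rat 29 (-0.16).

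Endothelial markers summed to 774 to 887 CPM in Sham, 723 to 833 CPM in MI and 655 to 791 CPM in MI + UA. In MI versus Sham, 1 of the 9 tested (Kdr) was lower and none was higher. The genes most like Bmp6 over the 12 rats were Cgnl1 (root mean square difference 0.201), Adcy2 (0.203) and Vwf (0.205). Cgnl1 encodes a junction protein, Adcy2 an adenylyl cyclase and Vwf the endothelial von Willebrand factor.

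Bmp2 and Bmp4, close relatives that act through the same receptors and are bound by gremlin 1, did not pass the test. For Bmp4 (ENSRNOG00000009694) the Sham rats had 2.13, 4.47, 5.05 and 4.17 CPM, the MI rats 4.97, 3.92, 7.78 and 6.76 CPM and the MI + UA rats 5.03, 3.85, 3.92 and 6.25 CPM, in the same order of rats. The 3 groups overlapped, with MI rat 57 below 3 of the 4 Sham rats. The log2 fold change in MI versus Sham was 0.60 (95% interval 0.09 to 1.11), with an unadjusted p of 0.0318 and an edgeR adjusted p of 0.158. For MI + UA versus MI the value was -0.28 (95% interval -0.74 to 0.19). Leaving out 1 rat gave 0.38 (without Sham rat 12) to 0.73 (without Sham rat 32) in MI versus Sham. In MI + UA versus MI it gave -0.44 (without MI + UA rat 66) to -0.12 (without MI rat 61).

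For Bmp2 (ENSRNOG00000071010) the Sham rats had 0.753, 1.15, 2.19 and 0.954 CPM, the MI rats 1.68, 2.04, 1.66 and 2.20 CPM and the MI + UA rats 1.60, 1.28, 2.30 and 1.01 CPM. Sham rat 32 lay among the MI rats, so the groups overlapped. The log2 fold change was 0.62 (95% interval -0.09 to 1.34, edgeR adjusted p = 0.323) in MI versus Sham and -0.33 (95% interval -0.98 to 0.32) in MI + UA versus MI. The latter turned to 0.024 with rat 66 counted in MI. With 1 rat left out, Bmp2 ranged from 0.44 (without Sham rat 12) to 0.99 (without Sham rat 32) in MI versus Sham. In MI + UA versus MI it ranged from -0.53 (without MI + UA rat 64) to -0.14 (without MI + UA rat 66).

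Bmp10 (ENSRNOG00000009316), a ligand made mainly by atrial muscle, gave between 0 and 10 reads per library. Sham rats had 0.502, 0.433, 0.505 and 0.119 CPM. MI rats had 0.512, 0.941, 1.04 and 0.652 CPM. MI + UA rats had 0.343, 0, 0.271 and 0.563 CPM, the 0 in rat 58 allowing up to 0.385 CPM. MI rats lay above Sham rats without overlap, although MI rat 36 (0.512) and Sham rat 32 (0.505) nearly met, and the MI + UA rats overlapped both groups. Its log2 fold change was 0.98 (SE 0.63, edgeR adjusted p = 0.377) in MI versus Sham and -1.17 (SE 0.59, unadjusted p = 0.0603) in MI + UA versus MI. Atrial markers summed to 131 to 136 CPM in Sham, 94.4 to 117 CPM in MI and 99.4 to 132 CPM in MI + UA. Of the 8, Nr2f2 rose and Tbx5 and Kcnj3 fell in MI versus Sham. Levels of Myl7, the atrial myosin light chain, were 0.658 to 10.4 CPM in MI and 2.16 to 2.98 CPM in Sham. The part of residual atrial tissue in the Bmp10 values was not tested.

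Inhba (ENSRNOG00000014320), which encodes the subunit of activin A, was close to the threshold. Sham rats had 0.502, 1.59, 0.842 and 1.07 CPM and MI rats 1.61, 2.51, 2.49 and 2.44 CPM. MI + UA rats had 2.00, 0.642, 2.57 and 1.69 CPM. MI and Sham did not overlap, although MI rat 36 (1.61) and Sham rat 17 (1.59) nearly met. MI + UA rat 58 had 5 reads and lay in the Sham range. MI versus Sham gave a log2 fold change of 1.16 (SE 0.40, edgeR adjusted p = 0.0652). The adjusted p was 0.0433 without Sham rat 17 and 0.049 without MI rat 36, while the other 6 fits that left out 1 rat did not pass, with adjusted p up to 0.179 and a log2 fold change of 0.92 without Sham rat 12. Relative to MI, the log2 fold change in MI + UA was -0.36 (95% interval -1.03 to 0.31) and -0.14 without MI + UA rat 58, and relative to Sham it was 0.80 (adjusted p = 0.252).

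Mstn (ENSRNOG00000021294), which encodes myostatin, a brake on muscle growth, was the only gene of the 10 with a lower estimate in MI than in Sham. Sham rats 12, 17, 32 and 38 had 2, 12, 4 and 2 reads, or 0.251, 1.73, 0.673 and 0.238 CPM. MI rats 36, 57, 61 and 89 had 0, 1, 1 and 4 reads, or 0, 0.157, 0.104 and 0.326 CPM. MI + UA rats 29, 58, 64 and 66 had 6, 9, 3 and 3 reads, or 0.343, 1.16, 0.406 and 0.169 CPM. MI rats were lower apart from rat 89, which lay above Sham rats 12 and 38. Rat 36, at 0 reads, could hold up to 0.219 CPM. In MI versus Sham the log2 fold change was -2.20 (SE 0.89), with an unadjusted p of 0.0224 and an edgeR adjusted p of 0.127. It was -1.28 without Sham rat 17 and -3.12 without MI rat 89. Against MI, the MI + UA rats had a log2 fold change of 1.61 (95% interval -0.14 to 3.36, unadjusted p = 0.0857), which was 0.95 without MI + UA rat 58 and 2.54 without MI rat 89. Cardiomyocyte markers, of which 9 of 11 fell in MI versus Sham, moved in the same direction, and their part in the Mstn values was not tested.

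Gdf15 (ENSRNOG00000019661), a circulating stress-induced ligand of the receptor GFRAL, was barely detected. It had 2 reads in all Sham rats together, 3 in MI, all of them in rat 57, and 5 in MI + UA. These 10 reads put it exactly at the minimum for testing. No fold change is given for MI versus Sham, since neither group had more than 3 reads. The ratio of MI + UA to MI was 1.39, with a 95% counting interval of 0.270 to 8.93. A difference in Gdf15 was not detectable at this depth. The gene overlaps Lrrc25 in the RefSeq annotation, and Bmp4 overlaps LOC134481955.

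**Figure D3:**
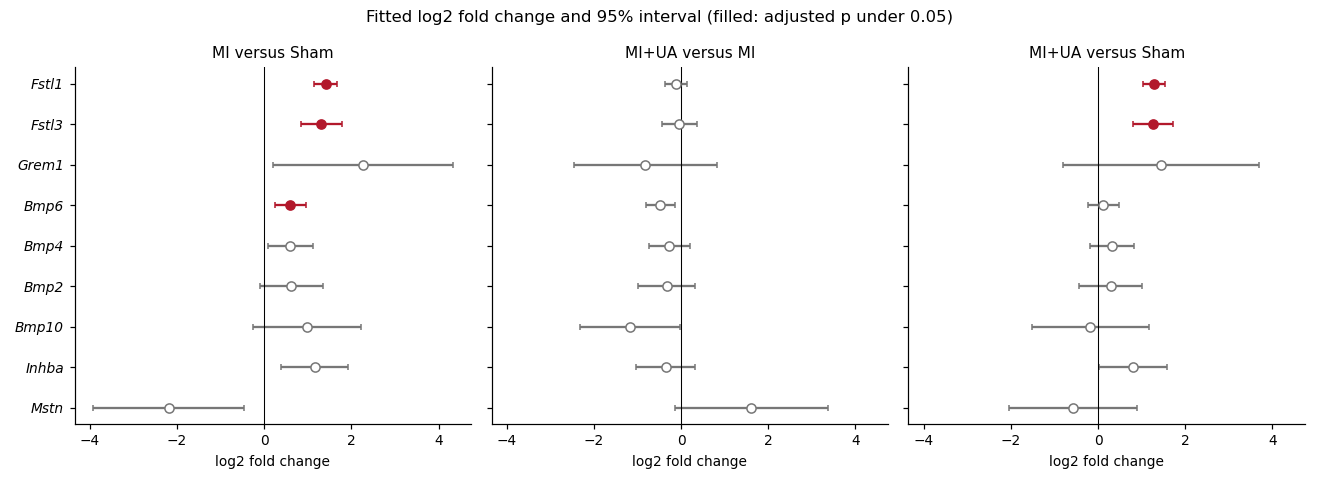
Log2 fold change of 9 of the genes in each comparison (points) with 95% intervals (bars); filled points passed an adjusted p of 0.05, and Gdf15 is left out for want of reads. Fstl1 and Fstl3 lay near 1.3 above Sham in both infarcted groups, and no point was filled in MI + UA versus MI.

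With UA, the estimate was lower than in MI for 8 of the 10 genes and higher for 2, where it was higher for 51% of all genes. With rat 66 counted in MI, it was lower for 5 and higher for 5. The median over the 10 was -0.30 on the log2 scale. No gene of the 10 separated MI + UA from MI without overlap, where 2.34% of all genes did. Of the 10, Fstl1 and Fstl3 passed the test in MI + UA versus Sham, where 9.44% of all genes were called, and the same 2 genes were the only ones without overlap (14.3% of all genes). The MI rats enter both the comparison with Sham and that with MI + UA, so values of the 2 comparisons are given side by side and not related to each other. Intervals of the UA difference excluded a log2 change beyond 0.44 in either direction for Fstl1 and Fstl3 but left room for changes above 2 for Grem1, Bmp10 and Mstn, the genes with the fewest reads after Gdf15.

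Ratios of ligand to antagonist reads within a library asked whether ligand and antagonist moved together. They were taken as log2 with 0.5 added to each count, and 12 tests were made (two-sided exact permutation over 70 groupings). They need no scaling between libraries where both genes have many reads, but at low counts the added 0.5 weighs on the ratio. With 0 reads of 1 gene the ratio is set by the 0.5 and by the other gene's count. The ratio of Mstn to Fstl3 was -2.72, -0.85, -2.44 and -3.35 in the Sham rats and -7.48, -5.49, -5.80 and -3.77 in the MI rats. Every MI rat was below every Sham rat, a difference of -3.30 (exact permutation p = 0.0286, the smallest possible, and adjusted p = 0.343). MI rat 36 had no Mstn read and MI rats 57 and 61 had 1 each, so the added 0.5 weighs on their ratios. In MI + UA the ratio was -4.41, -2.55, -3.88 and -5.16, which overlapped MI (difference 1.64, exact p = 0.171). The ratio of Inhba to Fstl3, by contrast, averaged -1.61 ± 0.52 over the Sham rats (SD, n = 4) and -1.70 ± 0.47 over the MI rats (SD, n = 4), with overlapping values (difference -0.10, exact permutation test, adjusted p = 0.904). Its difference in MI + UA versus MI was -0.48 (exact p = 0.400) and -0.10 without MI + UA rat 58. Ratios of Bmp2, Bmp4 and Bmp6 to Grem1 differed by -0.80, -0.87 and -0.84 in MI versus Sham (exact p from 0.343 to 0.514), and MI rat 57, with no Grem1 read, had the highest value of the MI rats in each, as Sham rat 32, also without a Grem1 read, had of the Sham rats. Leaving out 1 rat moved the differences between -1.72 (without MI rat 57) and -0.14 (without Sham rat 32) for Bmp2, between -1.58 and -0.37 for Bmp4 and between -1.73 and -0.43 for Bmp6. Gdf15 to Fstl3 is not read, since 3 of the 4 MI rats had no Gdf15 read.

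**Figure D4:**
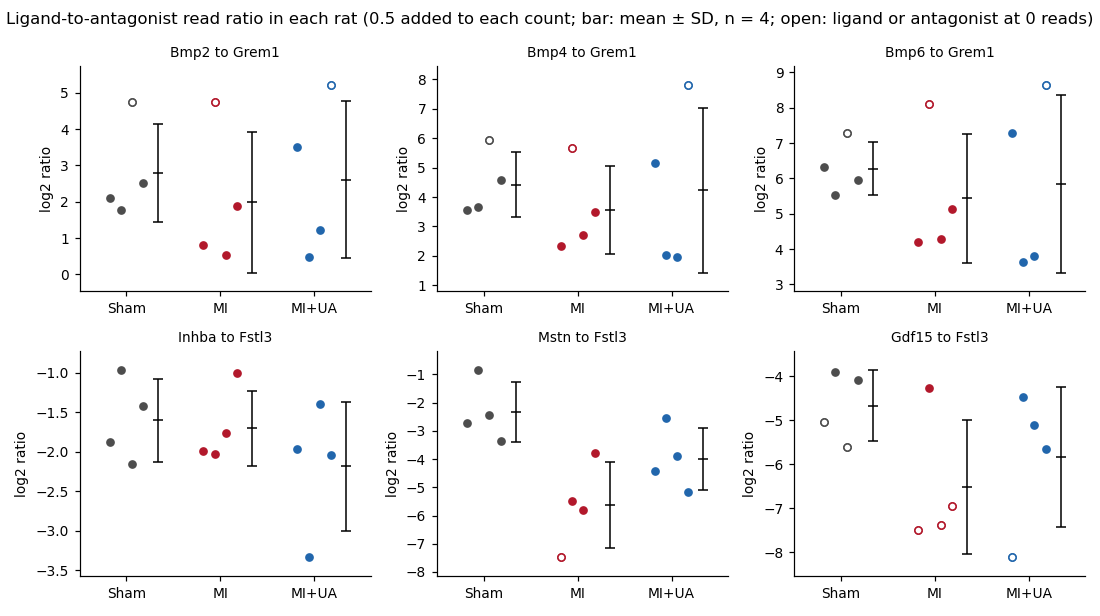
Log2 ratio of ligand to antagonist reads within each library (points, open where 1 of the genes had 0 reads), with the mean and SD of each group of 4 rats. The Mstn to Fstl3 ratio was lower in every MI rat than in every Sham rat, whereas the Inhba to Fstl3 ratio overlapped.

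The wider pathway was described by lists of 76 other genes, of which 66 had enough reads to be tested. In MI versus Sham 11 of the 66 (16.7%) passed the test, 9 higher and 2 lower, beside 11.4% of all genes. None of the 66 passed in MI + UA versus MI, and 9 (13.6%) did in MI + UA versus Sham, beside 9.44% of all genes.

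Of 16 tested antagonists other than the 3 above, 4 rose and 1 fell in MI versus Sham, beside 11.4% of all genes called in either direction. Their median log2 fold change was 0.36, against 0.03 over all genes tested. Fst, follistatin itself, rose from a mean of 1.59 ± 0.523 CPM among Sham rats (SD, n = 4) to one of 4.81 ± 1.90 CPM among MI rats (SD, n = 4), by 1.64 on the log2 scale (adjusted p = 0.0113 in edgeR), and lost its call without Sham rat 38 (adjusted p = 0.0542). The BMP antagonist Nbl1 rose by 1.10 on the log2 scale (adjusted p = 0.000429), from 10.2 to 19.0 CPM in Sham to 26.3 to 38.2 CPM in MI. Tsku, which binds several ligands of the superfamily, rose by 0.75 (adjusted p = 0.00644). Twsg1, a modulator that works with chordin, rose by 0.30 (adjusted p = 0.04), and Crim1, a membrane protein that retains BMPs, had a log2 fold change of -0.28 (adjusted p = 0.0238). Twsg1 lost its call without any of Sham rats 17, 32 and 38 and MI rats 61 and 89, and Crim1 without Sham rats 32 and 38 or MI rats 36 and 61.

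Of 15 tested ligands outside the 7, 2 rose and none fell, a count near the 11.4% of all genes called and no result about the list. Of these 15, 8 had at most 10 reads in MI and in Sham, so that the median of the list, 0.89, is itself the bound of Gdf7 (8 reads in MI, 0 in Sham). Inhbb, which encodes the subunit of activin B, had 2.38 to 3.32 CPM in Sham and 3.80 to 8.15 CPM in MI (log2 fold change 0.93, edgeR adjusted p = 0.0312). Gdf10, also called BMP3b, had 0 to 0.477 CPM in Sham and 0.470 to 1.68 CPM in MI (log2 fold change 2.17, adjusted p = 0.0374), and its groups overlapped. Inhbb lost its call without Sham rats 12, 32 or 38 or MI rats 57 or 61. Gdf10 lost its call without Sham rats 17 or 32 or MI rats 36, 61 or 89, and with rat 66 counted in MI (adjusted p = 0.0677).

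Of 13 receptors and co-receptors tested, Hjv (hemojuvelin, the muscle and liver co-receptor for BMPs) fell and none rose. Its mean level was 69.7 ± 3.87 CPM among Sham rats (SD, n = 4) and 48.6 ± 4.69 CPM among MI rats (SD, n = 4), and no MI rat overlapped a Sham rat (log2 fold change -0.52, edgeR adjusted p = 0.000782). MI + UA rats had 43.5 to 52.3 CPM. Bmpr2, the type II BMP receptor, had a log2 fold change of 0.05 (SE 0.07). Acvr2b, the type II receptor of activins and myostatin, had -1.06 (adjusted p = 0.0523). None of the 10 SMAD genes and regulators was called, and the median of that list was 0.11. These counts, 1 of 13 and 0 of 10, stand beside 11.4% of all genes called and are not a result about the lists.

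Of the 6 BMP target genes, only Id2 was called, and a single call in so short a list is no result about the list beside 11.4% of all genes. This inhibitor of transcription factor binding rose by 0.80 on the log2 scale (adjusted p = 0.00632), although its groups overlapped, the lowest MI rat at 17.9 CPM being just under the highest Sham rat. Its relatives Id1, Id3 and Id4 had log2 fold changes of 0.04, 0.16 and 0.63, none of which passed the test. Of the 6 processing enzymes, Bmp1, a procollagen and chordin protease that is not a BMP ligand, rose by 0.76 on the log2 scale (adjusted p = 0.000177), from 21.4 ± 3.58 CPM (SD, n = 4) to 36.5 ± 1.58 CPM (SD, n = 4). Pcsk5, a proprotein convertase, rose by 0.86 (adjusted p = 0.00189). Furin, the best known convertase of these precursors, had a log2 fold change of -0.25 (adjusted p = 0.0727).

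**Figure D5:**
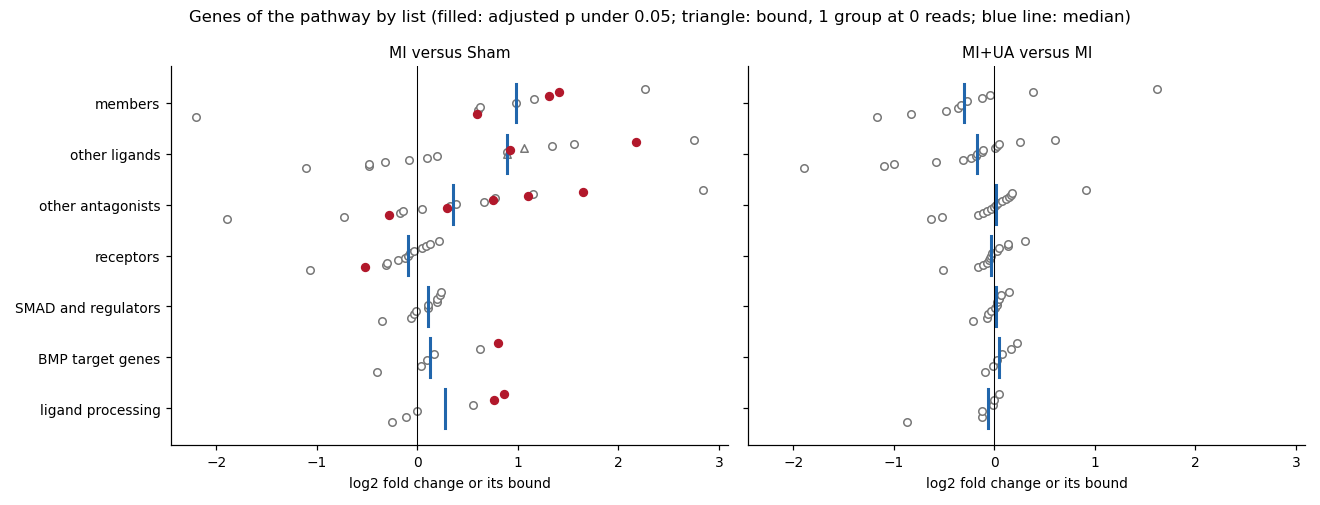
Log2 fold change of each tested gene of the pathway by list, in MI versus Sham (left) and MI + UA versus MI (right); filled symbols passed an adjusted p of 0.05, triangles are bounds for genes with 0 reads in 1 group, and the blue line is the median of the list. On the left 11 of the 66 listed genes beyond the 10 are filled, and on the right none is.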

How the data were processed

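Gene counts of 12 libraries (4 Sham, 4 MI and 4 MI + UA rats) were analysed. Per the labels and the study's methods, libraries were strand-specific and depleted of ribosomal RNA (the labels call the molecule polyA RNA), and read pairs were aligned with STAR 2.6.1c to mRatBN7.2 and counted per Ensembl gene with HTSeq. The authors deposited these counts without normalization, pooling no rats. An MI + UA library that the authors set aside as an outlier was not analysed here. The 5 HTSeq summary lines stayed out of library sizes and tests.

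Genes with at least 10 counts in total (18182 of 30560) were tested with edgeR 4.0.16 (R 4.3.3) by the quasi-likelihood test after TMM scaling, the 3 groups sharing one fit, and p-values were adjusted by Benjamini-Hochberg. The edgeR p-values weigh a difference between groups against a spread between rats that is estimated over the 3 groups and moderated across genes. Standard errors were the log2 fold change over the square root of F, and 95% intervals were normal. Such intervals are somewhat narrower than the quasi-likelihood test implies. For Bmp10 in MI + UA versus MI the interval was -2.32 to -0.02 while the unadjusted edgeR p was 0.0603. Counting intervals were exact binomial and, like the floor of 3 counts, cover counting error only. Ratios were tested with exact permutation (scipy 1.17.1). On simulated counts for MI versus Sham (17866 genes), the changed genes were drawn from those with an average log2 CPM of at least 1. Of these the fit called 28% of 50 changed by 0.5 on the log2 scale, 86% of 50 changed by 1 and all changed by 2 or 4. It also called 9 of 17666 unchanged genes. Inhba, Bmp2, Bmp10, Grem1, Mstn and Gdf15 had averages below that limit, so the shares called do not cover them. No replicates agreed within sampling noise (lowest chi-square per degree of freedom 1.95).

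The 10 genes, the pathway and marker lists and the tests were chosen with earlier results of these data known. A gene of the pathway lists is not reported here and enters no count or plot of the lists. Genes of the lists were named where they passed an adjusted p of 0.05 in MI versus Sham or MI + UA versus MI. Bmpr2, Acvr2b, Id1, Id3, Id4, Furin, Gdf7, Fabp4 and Myl7 were named after their values were seen. Genes most alike (3 per called gene) needed a symbol and an average log2 CPM of at least 1. Alternatives were DESeq2 1.42.0, its size factors in edgeR, no mitochondrial genes (13), other filters, fits of 2 groups, rat 66 in MI, a ratio pseudocount of 1 and leaving out each rat. Promoters came from RefSeq on GRCr8, not the build of the counts.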

Additional observations from a re-analysis of the deposited data

Results flagged for a closer look

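Each of the 10 genes was examined in each of the 3 groups for a rat far from the other 3, as the gap of the highest or lowest log2 CPM to its neighbour over the range of the group. In 3 of the 30 sets the share was above Dixon's 95% critical value for 4 samples, where chance gives about 1 in 20. Gdf15 was highest in MI rat 57 (share 1), which held all 3 of the group's reads, so that the share is 1 by construction. Inhba was lowest in MI rat 36 (share 0.941), at 1.61 CPM against 2.44 to 2.51 CPM in the other MI rats. Bmp10 was lowest in Sham rat 38 (share 0.875), with 1 read against 3 or 4 in the other Sham rats.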

How the results depend on the processing

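No paired analysis was possible because each rat belonged to 1 group and had its own number. Under DESeq2, its size factors in edgeR, no mitochondrial genes, other filters, fits of 2 groups and rat 66 in MI, the number of the 10 genes called stayed within 1.5 times its value in all 3 comparisons. Fstl1, Fstl3, Tsku, Nbl1, Hjv, Id2, Bmp1 and Pcsk5, 8 of the 14 genes of these families and lists called in MI versus Sham, were called in every fit run, leaving out each rat included. Testing every gene with at least 1 count gave 3 genes called in MI + UA versus MI, and leaving out each rat gave 0 to 1. With rat 66 counted in MI, the signs of the MI + UA versus MI log2 fold changes turned for Bmp2 (0.024), Fstl1 (0.12) and Grem1 (0.11), as did the ratios of Bmp2 (-0.89), Bmp4 (-1.35) and Bmp6 (-1.16) to Grem1, and the cause was not tested beyond the 0 Grem1 reads of that rat. Twsg1 was not called in the fit of 2 groups (adjusted p = 0.0577).

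Leaving out each rat in turn gave these ranges where a sign turned in MI + UA versus MI: Gdf15 -0.12 to 0.90, Fstl1 -0.19 to 0.013, Fstl3 -0.21 to 0.13, and the ratios to Grem1 of Bmp2 -0.25 to 1.54, of Bmp4 -0.50 to 1.44 and of Bmp6 -0.52 to 1.30. In MI versus Sham the range was -0.33 to 0.12 for Inhba to Fstl3. In MI + UA versus Sham they were -1.25 to 0.34 for Mstn, -0.16 to 0.26 for Bmp6 and -0.69 to 0.11 for Bmp10. The Mstn to Fstl3 ratio ranged from -3.92 to -2.68 without overlap, at an exact permutation p of 0.0571, the smallest that 3 rats against 4 allow. Between 2 and 4 of the 10 genes were called in MI versus Sham. Genes under a stricter filter (Gdf15, Grem1, Mstn and Bmp10) could not be fitted there, nor Gdf15 wherever its reads fell under 10. At this depth, differences of Gdf15, Grem1, Mstn and Bmp10 short of several-fold were not detectable.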
